A study of Mus musculus with 2 samples.

Results

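The 10 genes described here encode the machinery that starts the breakdown of leucine, isoleucine and valine, the branched-chain amino acids. They were taken by name, not by a threshold on their levels, from the 55450 genes with a symbol in both deposited quantifications. They are the transaminases Bcat1 and Bcat2, the dehydrogenase complex genes Bckdha, Bckdhb and Dbt, the complex's kinase Bckdk and phosphatase Ppm1k, the transcription factor Klf15, and the leucine-branch enzymes Ivd and Mccc1. Total RNA of whole heart tissue from B6CASTF1/J males aged 10 days was sequenced in 2 libraries, each from 300 ng of RNA with ribosomal RNA reduced and ERCC spike-in RNAs added. B6CASTF1/J mice are the first-generation hybrids of the C57BL/6J and CAST/EiJ strains, and no treatment, transgene or mutant allele is named in the labels. Both libraries belong to 1 group, so there is no control group, and the only comparison is between the males, called replicate 2 and replicate 1 as the labels number them.

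Branched-chain amino acids enter the cell through plasma membrane carriers and lose their amino group in a reversible step that Bcat1 carries out in the cytosol and Bcat2 in mitochondria. The resulting keto acids are committed to breakdown by a mitochondrial complex made of E1 (Bckdha and Bckdhb), E2 (Dbt) and an E3 subunit, Dld, that it shares with other complexes. Bckdk switches E1 off by phosphorylating a serine of the Bckdha protein, and Ppm1k removes that phosphate. Each amino acid then has its own branch, with Ivd and Mccc1 in that of leucine, and Klf15 is known in mouse heart and muscle as an activator of several genes of the pathway.

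The stretches below carry features that the results turn on. All are shown 5′ to 3′ on the strand of the gene, from the GRCm38 (mm10) genome and GENCODE M21 annotation. The first pair is from Bcat2 on chromosome 7, plus strand, within chr7:45587772-45588258. It shows exon 8 (86 bases, capitals) of the main coding transcript Bcat2-201, with the ends of exons 7 and 9 beside it. In Bcat2-204 exon 7 is joined to exon 9, and capitals mark the stop codon that comes into frame.
Bcat2-201: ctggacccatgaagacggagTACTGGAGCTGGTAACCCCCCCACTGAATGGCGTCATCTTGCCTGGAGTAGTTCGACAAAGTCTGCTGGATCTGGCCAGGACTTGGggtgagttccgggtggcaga
Bcat2-204: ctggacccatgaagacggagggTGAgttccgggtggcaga

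The second pair is from Bckdk, also on chromosome 7 and its plus strand. Bckdk-201 joins exon 11 to exon 12 across an intron of 87 bases (chr7:127908060-127908178, capitals mark the first bases of exon 12). Bckdk-202 reads on past the end of exon 11 into that intron and meets a stop codon (chr7:127908060-127908091, capitals).
Bckdk-201: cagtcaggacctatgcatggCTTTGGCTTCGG
Bckdk-202: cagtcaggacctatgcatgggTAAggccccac

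The third stretch lies in exon 8 of Bckdha-201 on the minus strand (chr7:25631135-25631170). It holds the codon, in capitals, of the serine that the kinase phosphorylates, and so marks where Bckdk and Ppm1k act on the product of Bckdha.
Bckdha-201: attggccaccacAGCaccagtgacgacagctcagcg

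The libraries were of like depth, with total expected counts of 37907585 in replicate 2 and 38851514 in replicate 1. Of the markers of the labelled tissue, all 6 cardiomyocyte genes were detected, and Myh6, the main adult cardiac myosin gene, was at 8333.2 TPM in replicate 2 and 8595.15 TPM in replicate 1. None of 4 skeletal muscle markers was detected. Other cell types differed between the libraries. The summed level of 8 adipocyte markers was 31.35 TPM in replicate 2 and 424.93 TPM in replicate 1, and that of 5 atrial markers was 269.13 TPM in replicate 2 and 1504.31 TPM in replicate 1. Each library was treated as 1 animal, although the labels of both cite 1 donor record, so spreads over the pair are those between these libraries.

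Levels are given as TPM, a transcript abundance that is corrected for length and scaled to the same sum in each library, so that genes can be compared. Of the 10 genes, 9 were detected, here meaning at least 1 TPM in both libraries, and Bcat1 was the exception. In the other quantification all 10 were detected, with Bcat1 at 1.38 TPM in replicate 2 and 2.49 TPM in replicate 1. The median level of the 10 was 17.345 TPM in replicate 2 and 21.565 TPM in replicate 1, above the median of the 12705 detected genes, which was 9.11 TPM in replicate 2 and 10.53 TPM in replicate 1. In descending order of mean TPM in the first quantification the genes ran Bckdha, Bckdk, Ivd, Bcat2, Mccc1, Bckdhb, Klf15, Dbt, Ppm1k and Bcat1. The ranges of the libraries overlapped for 5 of the 9 neighbouring pairs in that order. They did not overlap between Ivd and Bcat2, Bcat2 and Mccc1, Klf15 and Dbt, or Ppm1k and Bcat1. The order differed in the other quantification, where Ivd and Bckdk lay above Bckdha in both libraries and the ranges of Bcat2 and Mccc1 overlapped.

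**Figure D1:**
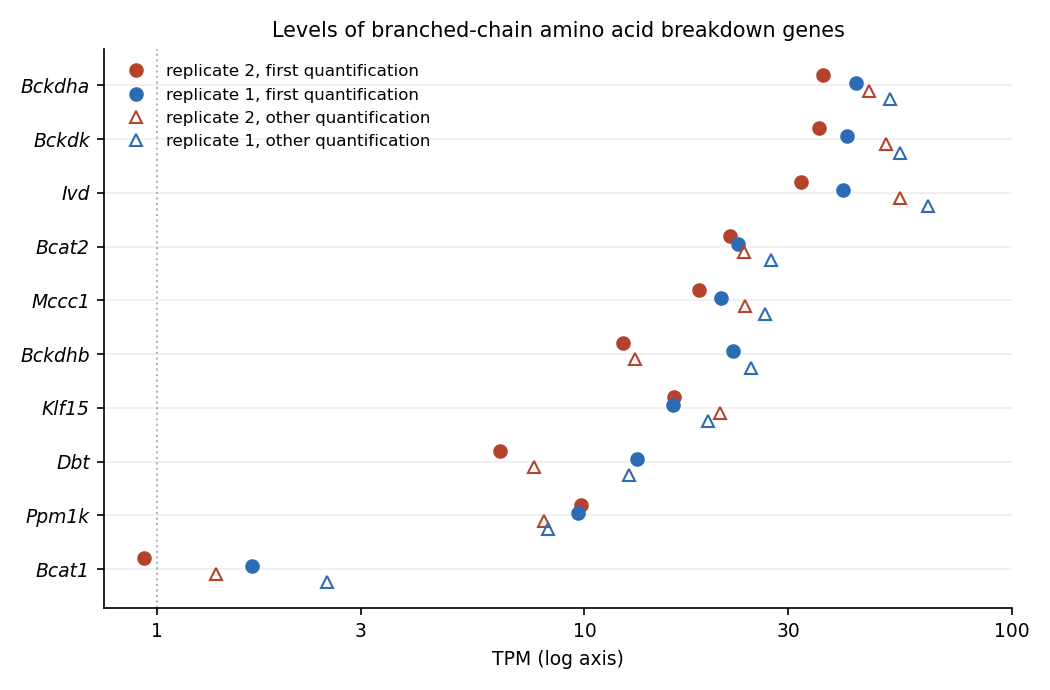
Level of each gene in TPM (log axis) in both libraries and both deposited quantifications, with replicate 2 drawn above replicate 1 and genes ordered by mean TPM of the first quantification. The dotted line is the detection minimum of 1 TPM, and the lowest point is Bcat1 in replicate 2 at 0.93 TPM.

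The transaminases were far apart in level. Bcat2, the mitochondrial enzyme (ENSMUSG00000030826.19, chr7:45570153-45589711, plus strand), was at 21.95 TPM in replicate 2 and 22.93 TPM in replicate 1, from 852 reads in replicate 2 and 967 in replicate 1. Bcat1, the cytosolic enzyme (ENSMUSG00000030268.17, chr6:144993835-145076184, minus strand), was at 0.93 TPM in replicate 2 and 1.67 TPM in replicate 1, from 88 reads in replicate 2 and 110 in replicate 1. Bcat1 was therefore counted in both hearts but at a level below or near the detection minimum. The log2 ratio of Bcat2 over Bcat1 TPM, taken within a library, was 4.42 in replicate 2 and 3.70 in replicate 1, a mean of 4.06 ± 0.51 (SD, n = 2) that corresponds to 16.7-fold. In a whole-heart sample, fewer cells of a type and less RNA per cell cannot be told apart, so the low Bcat1 level does not say which cells carry it.

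The subunits of the dehydrogenase complex were unequal in level. Bckdha, the alpha subunit of E1 (ENSMUSG00000060376.7, chr7:25629946-25658981, minus strand), was the highest of the 10 in the first quantification, at 36.1 TPM in replicate 2 and 43.26 TPM in replicate 1. Its mean lay above that of 85.5% of detected genes. Bckdhb, the beta subunit that pairs with it in equal number in the protein (ENSMUSG00000032263.14, chr9:83925145-84124240, plus strand), was at 12.32 TPM in replicate 2 and 22.3 TPM in replicate 1. Dbt, the acyltransferase core of the complex (ENSMUSG00000000340.10, chr3:116513070-116549981, plus strand), was at 6.35 TPM in replicate 2 and 13.25 TPM in replicate 1. Bckdhb and Dbt were thus below Bckdha in both libraries, and all 3 had the lower TPM in replicate 2. The median of detected genes was also lower there, at 9.11 TPM against 10.53 TPM in replicate 1. The log2 ratio of Bckdhb over Bckdha was -1.54 in replicate 2 and -0.95 in replicate 1 (mean -1.25 ± 0.42, SD). The log2 ratio of Dbt over Bckdha was -2.49 in replicate 2 and -1.70 in replicate 1 (mean -2.09 ± 0.56, SD). The spread of both ratios between the libraries was large, while their sign was the same in both.

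The pyruvate dehydrogenase complex is built on the same plan and has its own E1 and E2 genes, so its levels give a scale for these. Pdha1, its E1 alpha gene, was at 342.62 TPM in replicate 2 and 386.59 TPM in replicate 1. Within a library Pdha1 exceeded Bckdha by a log2 ratio of 3.20 ± 0.06, and Pdhb, its E1 beta gene, exceeded Bckdhb by 4.18 ± 0.46 (means ± SD, n = 2). Dlat, its E2 gene, exceeded Dbt by 3.88 ± 0.52, and by 5.01 ± 0.37 in the other quantification. Pdhb lay close to Pdha1, at a log2 ratio of -0.27 ± 0.02 that turned to 0.12 ± 0.03 in the other quantification, whereas Bckdhb over Bckdha was at -1.25 ± 0.42. Dld, the E3 gene that both complexes use, was at 134.82 TPM in replicate 2 and 155.98 TPM in replicate 1, a log2 ratio of 3.97 ± 0.59 over Dbt. These ratios between complexes, apart from Bckdhb over Bckdha, were chosen after the values had been seen.

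Of the enzymes that switch the complex off and on, the kinase had the higher level summed over its transcripts. Bckdk (ENSMUSG00000030802.14, chr7:127904082-127910221, plus strand) was at 35.34 TPM in replicate 2 and 41.13 TPM in replicate 1, a range that overlapped that of Bckdha, its substrate. Ppm1k, the phosphatase (ENSMUSG00000037826.5, chr6:57506502-57535468, minus strand), was at 9.82 TPM in replicate 2 and 9.68 TPM in replicate 1. The log2 ratio of Bckdk over Ppm1k was 1.84 in replicate 2 and 2.08 in replicate 1, with a mean of 1.96 ± 0.17 (SD, n = 2) or 3.88-fold. In the other quantification this ratio was larger, at 2.64 in replicate 2 and 2.72 in replicate 1. Ppm1k-202, a non-coding transcript of 264 bases, held 36.0% of Ppm1k TPM in replicate 2 and 23.3% in replicate 1. The other quantification gave it none. Ppm1k-201, which codes for protein, was at 5.65 TPM in replicate 2 and 6.34 TPM in replicate 1. Bckdk-202 was above it, at 20.62 TPM in replicate 2 and 24.25 TPM in replicate 1. Bckdk-201 was below it, at 4.59 TPM in replicate 2 and 5.25 TPM in replicate 1. RNA levels do not give enzyme activity or the phosphorylation state of the complex.

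Klf15 (ENSMUSG00000030087.11, chr6:90462576-90475238, plus strand) was nearly equal in TPM between the libraries, at 16.18 in replicate 2 and 16.16 in replicate 1. It came from 1162 reads in replicate 2 and 1103 in replicate 1. In both libraries it lay below Klf9, a glucocorticoid-responsive factor of the same family, which was at 50.3 TPM in replicate 2 and 49.76 TPM in replicate 1. Klf6 and Klf2, among others of the family, were also above it in both.

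In the leucine branch, Ivd, the dehydrogenase that follows the complex (ENSMUSG00000027332.11, chr2:118861954-118882909, plus strand), was at 32.12 TPM in replicate 2 and 40.22 TPM in replicate 1. Mccc1, the biotin-carrying subunit of the carboxylase of the next step (ENSMUSG00000027709.9, chr3:35959312-36000678, minus strand), was at 18.51 TPM in replicate 2 and 20.83 TPM in replicate 1. Ivd was the higher in both, with a log2 ratio over Mccc1 of 0.79 in replicate 2 and 0.95 in replicate 1. The partner subunit gene Mccc2 was at 13.08 TPM in replicate 2 and 16.01 TPM in replicate 1, which put Mccc1 above it by a log2 ratio of 0.44 ± 0.08 (SD, n = 2).

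The gene levels rest on different mixtures of transcripts. GENCODE M21 lists 61 transcripts for the 10 genes, of which 27 are not annotated as protein-coding. In the first quantification 12 were at 0 TPM in both libraries. Some of those 12 had TPM in the other quantification, such as Mccc1-206 at 1.13 TPM in replicate 2 and 4.17 TPM in replicate 1. In 8 of the 10 genes the same transcript led in both deposited quantifications, and Bckdhb and Klf15 were the exceptions. The 8 genes that have a transcript annotated as not coding varied widely in how much of their TPM it took.

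Ivd and Mccc1 had the largest shares of transcripts not annotated as coding. In Ivd they took 48.5% of the gene's TPM in replicate 2 and 52.6% in replicate 1, mostly as processed transcripts. In Mccc1 they took 42.1% in replicate 2 and 42.4% in replicate 1, as retained introns and as transcripts annotated for nonsense-mediated decay. These shares were also high in the other quantification, at 64.3% for Ivd and 32.9% for Mccc1 in replicate 2, and 68.2% for Ivd and 37.8% for Mccc1 in replicate 1. Bckdha and Klf15 have only transcripts annotated as coding.

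The skipped exon of Bcat2 shown above was used in a share of its RNA that depended on the quantification. Bcat2-204, the form without exon 8, which GENCODE annotates for nonsense-mediated decay, held 30.6% of Bcat2 TPM in replicate 2 and 27.8% in replicate 1. Bcat2-201, with exon 8, held 41.9% in replicate 2 and 52.2% in replicate 1. The other quantification gave Bcat2-204 only 6.80% in replicate 2 and 15.0% in replicate 1, and gave Bcat2-201 85.5% in replicate 2 and 82.2% in replicate 1. Both quantifications thus put RNA on the skipped form in both hearts, while the amounts differed between them.

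For Bckdk, the form that reads on past exon 11 led in each library. Bckdk-202 held 58.3% of Bckdk TPM in replicate 2 and 59.0% in replicate 1, and in the other quantification 55.1% in replicate 2 and 55.4% in replicate 1. Bckdk-201, which joins exon 11 to exon 12, held 13.0% in replicate 2 and 12.8% in replicate 1, and in the other quantification 9.83% in replicate 2 and 8.87% in replicate 1. GENCODE annotates both as protein-coding, and they differ in the end of the open reading frame as shown in the sequences above. The rest of Bckdk TPM was divided differently by the quantifications. Bckdk-204 held 1.56% in replicate 2 and 0.827% in replicate 1, but 34.4% and 34.7% in the other quantification. Bckdk-203, with a retained intron, held 17.8% in replicate 2 and 15.5% in replicate 1, but 0.615% and 1.03% in the other. The share of Bckdk-202 differed by less than 1 percentage point between the animals in either quantification.

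For Bckdhb and Klf15 the quantifications differed in the leading transcript. Bckdhb-201 has the same sequence as the end of Bckdhb-206, which is longer by 5 bases, so few reads can tell them apart. The first quantification gave Bckdhb-206 no TPM in either library, and the other gave it 0.308% in replicate 2 and 78.0% in replicate 1. Klf15-201 held 64.0% of Klf15 TPM in replicate 2 and 87.3% in replicate 1 in the first quantification, and under 1% in both libraries in the other, where Klf15-203 and Klf15-202 held most. No switch of transcript between the animals is read from these genes.

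**Figure D2:**
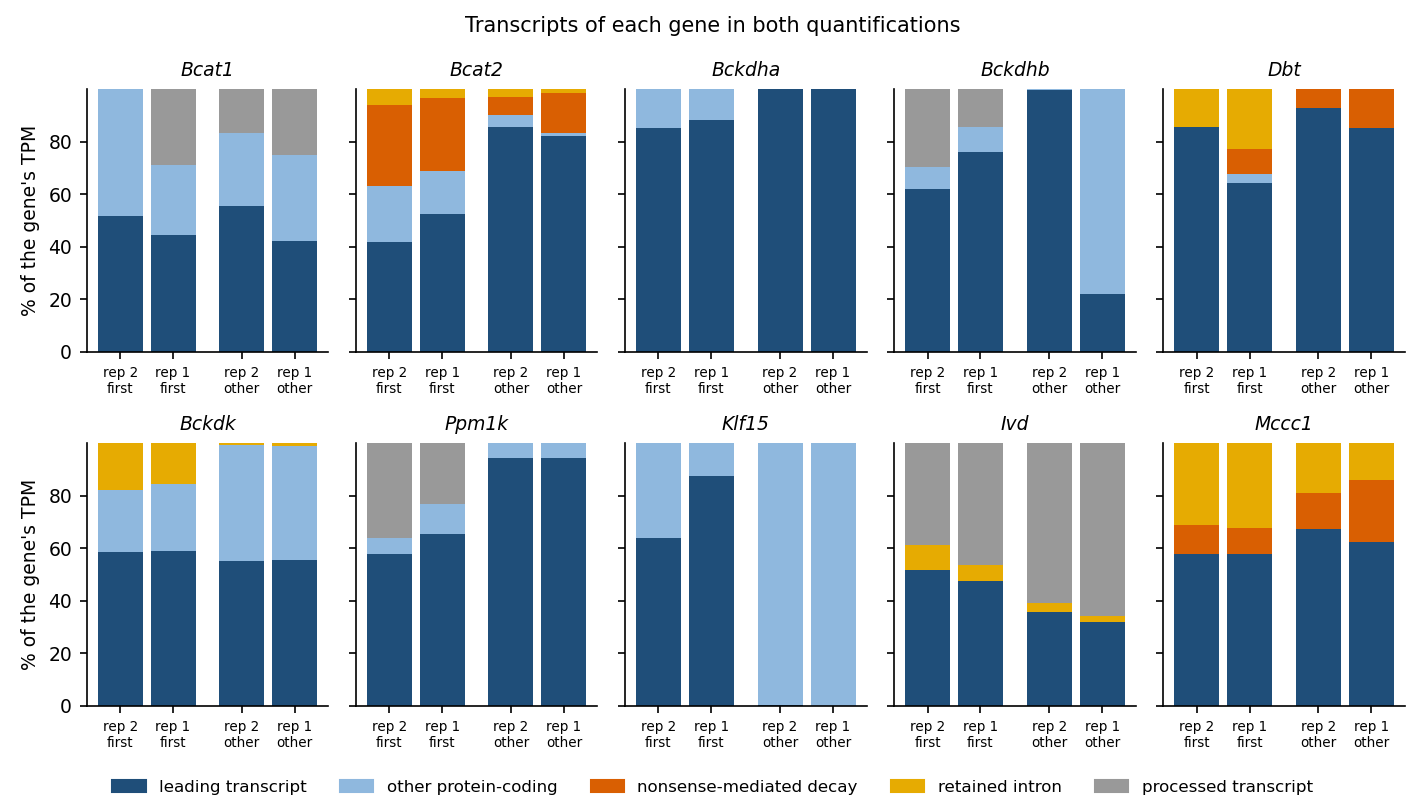
Share of each gene's TPM (percent, from 0 to the whole) by GENCODE class of transcript, in replicate 2 and replicate 1 of the first quantification and of the other one. The leading transcript is that of the first quantification. Bckdk-202 takes 55.1% to 59.0% in all 4 bars, while the leading transcript of Bckdhb takes 22.0% to 99.7%.

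Between the animals, counts were compared as the log2 ratio of replicate 2 over replicate 1 after scaling for composition (TMM). A 95% interval that covers counting error only was set around each. A wider one added the spread that edgeR estimated over all genes from these same 2 libraries, a biological coefficient of variation of 0.147. The wider interval is thus no independent check of a gene's ratio. With 1 library per animal no test across animals was possible. Of the 10 genes, 0 were over 2-fold, against 1.79% of the 13208 genes with a mean count of at least 50 (0.984% lower and 0.803% higher in replicate 2). The median log2 ratio of the 10 was -0.04, beside 0.01 for all genes tested, and 6 of the 10 were lower in replicate 2, where 48.7% of all genes were. That split depended on scaling, with 7 lower under DESeq2 size factors, 9 under total counts, which shifted the median of all genes to -0.10, and 8 in the other quantification.

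Bckdhb and Dbt had the lowest count ratios of the 10. Bckdhb had 430 reads in replicate 2 and 829 in replicate 1, a log2 ratio of -0.80 (counting interval -0.98 to -0.64), or 1.75-fold lower. It was the only one of the 10 whose wider interval, -1.42 to -0.19, left out equality, against 4.79% of all genes tested (2.42% for lower in replicate 2). Its ratio was below that of all but 1.55% of genes. Dbt had 568 reads in replicate 2 and 878 in replicate 1, a log2 ratio of -0.49 (-0.64 to -0.33). The wider interval of Dbt, -1.09 to 0.12, held equality.

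On the TPM scale the Dbt log2 ratio was further from equality, at -1.06, and those of Bckdhb and Bcat1 were alike, at -0.86 and -0.84. These TPM ratios are not scaled for composition. The median of detected genes was itself lower in replicate 2, at 9.11 TPM against 10.53 TPM in replicate 1. The coding Dbt-201 was at 5.43 TPM in replicate 2 and 8.49 TPM in replicate 1. Dbt-202, a short transcript with a retained intron, was at 0.92 TPM in replicate 2 and 3.02 TPM in replicate 1. Those Dbt-202 values rest on few assigned reads, 10.65 for replicate 2 against 32.96 for replicate 1. Dbt-202 had no TPM in either library of the other quantification. There Dbt as a whole was at 7.62 TPM (replicate 2) and 12.71 TPM (replicate 1). In the other quantification the count ratios were -0.84 for Bckdhb and -0.56 for Dbt, so both kept their direction there.

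Klf15 was the only gene with a counting interval above equality, at a log2 ratio of 0.22 (0.10 to 0.34), and its wider interval of -0.38 to 0.82 held equality. In all, 3 of the 10 counting intervals left out equality, against 42.9% of all genes tested. Of these 3, 2 were lower (20.6% of all genes) and 1 was higher in replicate 2 (22.4%). The other 7 genes had log2 ratios between -0.18 for Bcat1 and 0.06 for Ppm1k and Mccc1. Bckdha, the partner of Bckdhb, had 1884 reads in replicate 2 and 2177 in replicate 1, a log2 ratio of -0.07 (-0.16 to 0.02). Its wider interval was -0.66 to 0.53, which overlapped that of Bckdhb. In the other quantification the counting interval of Bckdha, -0.19 to -0.01, left out equality.

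**Figure D3:**
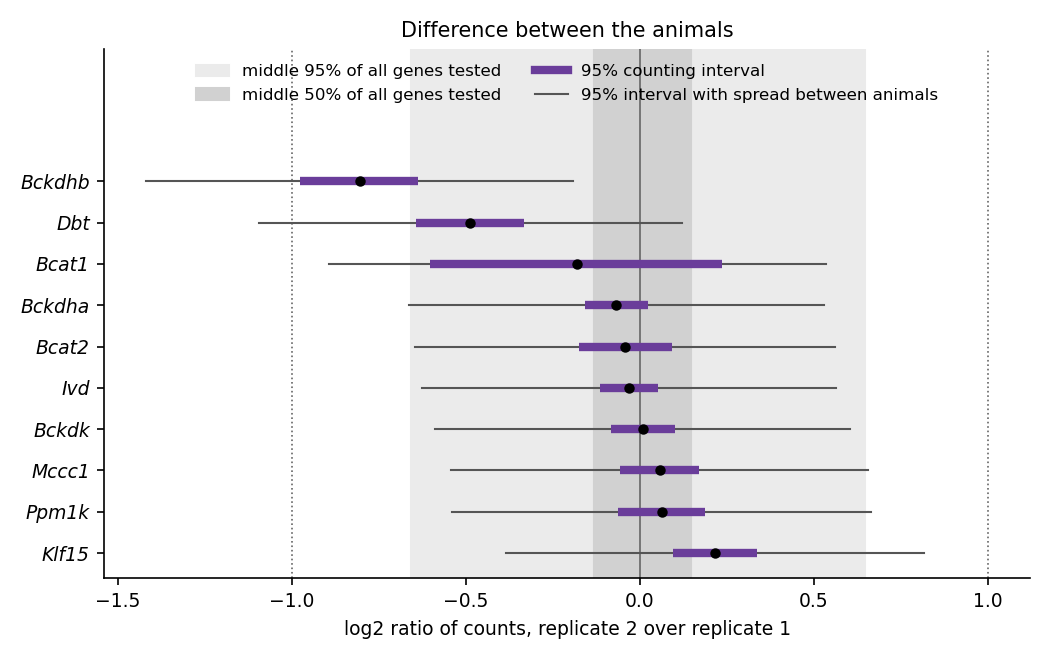
Log2 ratio of counts, replicate 2 over replicate 1, for each gene (points), with the 95% counting interval (thick bars) and a widened interval (thin lines). The widening is the spread between animals estimated over all genes of these same 2 libraries. The light band is the middle 95% of all 13208 genes tested, from -0.66 to 0.65, the dark band is the middle 50%, and dotted lines mark 2-fold. Bckdhb lies outside the light band.

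Markers of adipocytes and atrial cardiomyocytes were lower in replicate 2, where 48.7% of all genes tested were lower. Their relation to Bckdhb and Dbt was not tested. All 6 adipocyte markers with enough counts were over 2-fold lower in replicate 2 (0.984% of all genes tested), at a median log2 ratio of -4.97. Of the 8 listed, Ucp1, the heat-producing protein of brown fat, was at 5.02 TPM in replicate 2 and 239.01 TPM in replicate 1, and Adipoq was at 0.42 TPM in replicate 2 and 15.63 TPM in replicate 1. Lep and Retn were at 0 TPM in replicate 2 and under 1 TPM in replicate 1. All 5 atrial markers were over 2-fold lower too (median -2.05), with Nppa at 115.69 TPM in replicate 2 and 753.36 TPM in replicate 1.

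Other cell types differed by less. The median log2 ratio was -0.49 for 5 fibroblast markers, -0.64 for 4 smooth muscle markers, -0.48 for 4 macrophage markers and -0.09 for 4 endothelial markers. It was 0.18 for 6 cardiomyocyte markers and 0.25 for 3 red blood cell markers. The part of these cell types in the Bckdhb and Dbt values was not tested.

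The 18 other genes listed here for the breakdown of the 3 amino acids were all detected, and none was over 2-fold between the animals (background 1.79%). Their median log2 ratio was -0.08, with 12 lower and 6 higher in replicate 2, where 48.7% of all genes were lower. The ratios ran from -0.40 to 0.10. Scaling by total counts shifted the median of all genes from 0.01 to -0.10, so this split also depends on scaling. In the leucine branch Auh, a hydratase, led at 29.21 TPM in replicate 2 and 30.95 TPM in replicate 1. In the isoleucine and valine branch the highest were Acat1, a thiolase, at 109.09 TPM in replicate 2 and 126.25 TPM in replicate 1, and Echs1, a hydratase that also serves fatty acid oxidation, at 89.69 TPM in replicate 2 and 113.63 TPM in replicate 1. Hsd17b10 was at 60.84 TPM in replicate 2 and 66.63 TPM in replicate 1. Acat1, Echs1 and Hsd17b10 each exceeded all of the 10 genes in both libraries.

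The last steps turn propionyl-CoA into succinyl-CoA. There Mcee, an epimerase, was at 50.4 TPM in replicate 2 and 55.3 TPM in replicate 1, Pccb, a carboxylase subunit, at 29.18 TPM in replicate 2 and 37.19 TPM in replicate 1, and Mut, the mutase, at 22.65 TPM in replicate 2 and 27.96 TPM in replicate 1. The log2 ratios of these 6 genes between the animals had a median of -0.12.

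Transport genes were the lowest of the lists by median level, at 3.16 TPM in replicate 2 and 4.73 TPM in replicate 1. Of 7 listed, 4 were detected. Slc3a2, the heavy chain of the heteromeric amino acid carriers, was the highest at 19.15 TPM in replicate 2 and 23.51 TPM in replicate 1. Slc7a5, its light chain partner for large neutral amino acids, stood at that median in both libraries and was named after its value had been seen. Slc43a2, a facilitated carrier, was at 6.49 TPM in replicate 2 and 5.92 TPM in replicate 1. Slc25a44, which carries branched-chain amino acids into mitochondria, was at 5.17 TPM in replicate 2 and 6.82 TPM in replicate 1. Slc6a15 had 3 reads in replicate 2 and 11 in replicate 1.

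The 6 genes of amino group acceptors ranged widely. Got2, the mitochondrial aspartate transaminase, was at 242.81 TPM in replicate 2 and 266.4 TPM in replicate 1, and Got1, its cytosolic counterpart, at 180.27 TPM in replicate 2 and 204.23 TPM in replicate 1. Glul, glutamine synthetase, was at 144.98 TPM in replicate 2 and 144.19 TPM in replicate 1. These 3 were well above Bcat2 in both libraries. Gpt and Gpt2, the alanine transaminases, were below it, Gpt at 9.92 TPM in replicate 2 and 13.17 TPM in replicate 1 and Gpt2 at 7.6 TPM in replicate 2 and 8.48 TPM in replicate 1.

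Among the 7 listed kinases and phosphatases of the sister complexes, Pdk4, a kinase of pyruvate dehydrogenase, was the highest at 504.75 TPM in replicate 2 and 369.89 TPM in replicate 1. Its log2 count ratio was 0.68 (0.66 to 0.70), where that of Bckdk was 0.01 (-0.08 to 0.10). Pdk2 was at 104.11 TPM in replicate 2 and 109.06 TPM in replicate 1, and Pdk1 at 53.73 TPM in replicate 2 and 49.86 TPM in replicate 1. The highest of the sister complex genes was Ogdh, of 2-oxoglutarate dehydrogenase, at 473.78 TPM in replicate 2 and 541.08 TPM in replicate 1.

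Of the 16 other Kruppel-like factors, 11 were detected and 12 had enough counts to compare. Of these 12, 7 were higher in replicate 2 and 5 lower (median log2 ratio 0.15), where 48.7% of all genes were lower. Klf6 was at 44.79 TPM in replicate 2 and 34.07 TPM in replicate 1, and Klf2, known for its role in endothelium, at 41.98 TPM in replicate 2 and 34.59 TPM in replicate 1. Klf1, Klf5, Klf8, Klf14 and Klf17 were under 1 TPM in both, and Klf17 had no read in either library. Klf15 is induced by glucocorticoids in mouse tissues, and all 8 genes listed for these hormones were detected. Their median log2 ratio was 0.30, with 5 higher in replicate 2 and 3 lower, where 48.7% of all genes were lower. A relation between these genes and Klf15 was not tested. Tsc22d3 was the highest of them at 83.26 TPM in replicate 2 and 81.56 TPM in replicate 1 (log2 count ratio 0.27), and Sgk1 was at 52.91 TPM in replicate 2 and 50.53 TPM in replicate 1 (0.33). Zbtb16 was at 72.07 TPM in replicate 2 and 83.04 TPM in replicate 1, at a log2 count ratio of -0.04. Fkbp5 was lower in replicate 2, at -0.16 (counting interval -0.26 to -0.06). Over all 69 of these other genes, 31 were lower and 33 higher among the 64 compared, where 48.7% of all genes were lower. None of the 64 was over 2-fold, against 1.79% of all genes tested.

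**Figure D4:**
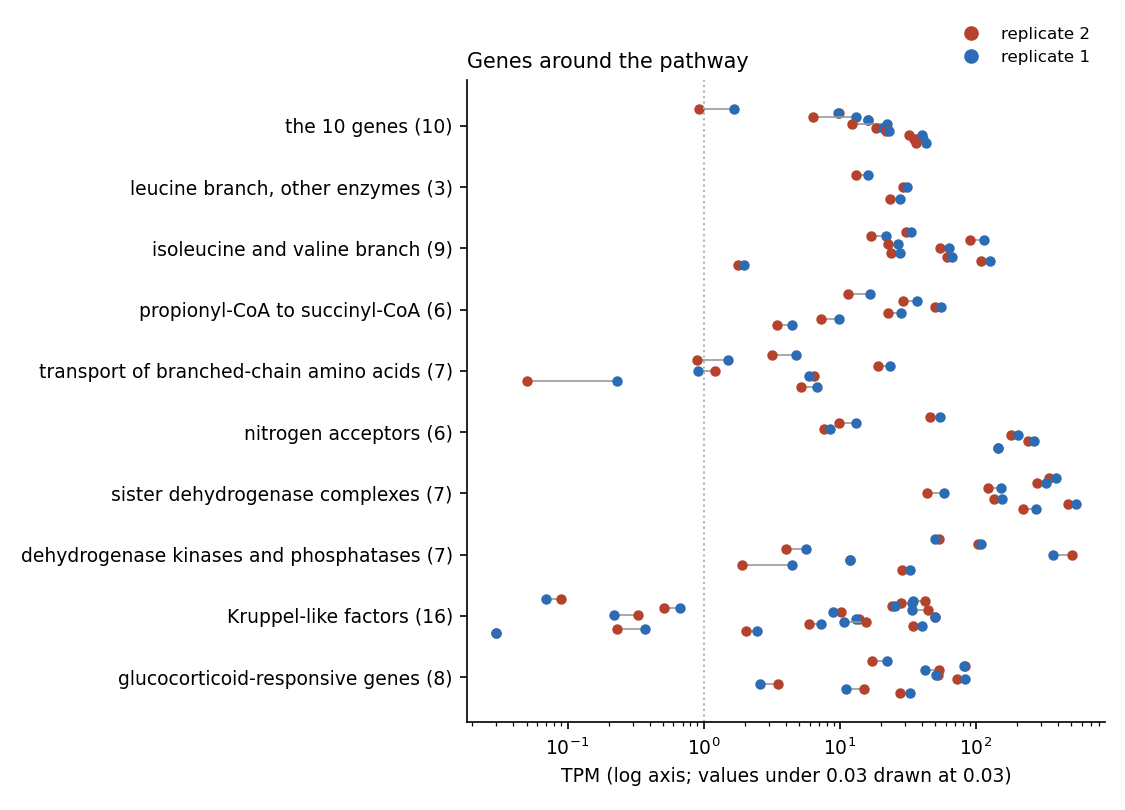
Levels in TPM (log axis) of the 10 genes and of each list of related genes in replicate 2 and replicate 1, 1 line per gene, with the number of genes in each list in brackets and the detection minimum of 1 TPM dotted. In this first quantification the 10 genes lie between 0.93 and 43.26 TPM, and the sister dehydrogenase genes start just above, at 43.43 TPM. In the other quantification Ivd (54.7 TPM in replicate 2, 63.5 in replicate 1) lay above Pdhx of that list (51.6 and 58.7).

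Of 4 letter patterns searched on both strands at the start sites, none was common to all the genes. RefSeq windows of 300 bases (250 before and 50 after a gene's start, GRCm38.p6) were found for 9 of the 10, in 12 windows. CACCC, or GGGTG on the other strand, is the core of the letters that Kruppel-like factors are known to bind, and was in 8 of the 12 windows, against 57.5% of 32851 windows of all genes. GGGCGG, or CCGCCC, was in 4 of the 12 (35.7% of all windows), CCAAT, or ATTGG, in 8 (37.4%), and TATAAA, or TTTATA, in 2 (13.6%). Matches of CACCC and CCGCCC can share bases. CG pairs numbered between 2 and 47 with a median of 12, beside a median of 7 over all windows. A window of each E1 partner is printed with that of Klf15, and capitals mark CACCC or GGGTG. They lie at chr7:25658712-25659011 on the minus strand for Bckdha, chr9:83924887-83925186 on the plus strand for Bckdhb and chr6:90462326-90462625 on the plus strand for Klf15.
Bckdha: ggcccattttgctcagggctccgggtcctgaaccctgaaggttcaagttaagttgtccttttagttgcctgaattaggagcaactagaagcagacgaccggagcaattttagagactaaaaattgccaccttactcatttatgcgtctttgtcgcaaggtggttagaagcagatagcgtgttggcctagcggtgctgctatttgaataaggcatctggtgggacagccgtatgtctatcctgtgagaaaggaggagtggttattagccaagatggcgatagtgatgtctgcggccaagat
Bckdhb: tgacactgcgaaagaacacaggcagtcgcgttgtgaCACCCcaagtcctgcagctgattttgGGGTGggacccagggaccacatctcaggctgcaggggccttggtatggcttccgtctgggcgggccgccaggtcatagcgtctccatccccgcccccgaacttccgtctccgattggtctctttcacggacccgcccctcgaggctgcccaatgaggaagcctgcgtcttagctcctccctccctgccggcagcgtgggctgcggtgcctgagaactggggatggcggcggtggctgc
Klf15: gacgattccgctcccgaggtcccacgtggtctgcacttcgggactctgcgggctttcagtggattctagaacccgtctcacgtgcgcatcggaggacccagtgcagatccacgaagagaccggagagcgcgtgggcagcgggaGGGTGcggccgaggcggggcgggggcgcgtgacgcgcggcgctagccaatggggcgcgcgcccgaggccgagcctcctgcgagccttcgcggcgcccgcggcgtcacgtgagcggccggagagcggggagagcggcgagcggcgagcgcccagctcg

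The Bckdha window held none of the 4 patterns and 10 CG pairs. The printed Bckdhb window held 2 of CACCC, 3 of GGGCGG, 2 of CCAAT and 20 CG pairs. A second Bckdhb window, at chr9:83948531-83948830, held 1 of CCAAT, none of the other patterns and 2 CG pairs, the fewest of the 12. The Klf15 window held 1 of each of these 3 patterns and 47 CG pairs, the most of the 12. A match is a description of letters and says nothing of binding.

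Reads of the 10 genes were not divided with other genes in the first quantification, since all their expected counts were whole numbers. Some overlap other genes, however, and the use of strand in counting was not stated. B3gnt8, on the strand opposite Bckdha, had 118 reads in replicate 2 and 150 in replicate 1, few beside those of Bckdha. Gm4596, a processed pseudogene on the strand opposite Dbt, was at 27.12 reads in replicate 2 and 16.87 in replicate 1, the opposite direction to Dbt. Words of 31 bases shared with other genes' transcripts made up 0% for Bckdha and Klf15 and at most 5.82% for Bckdhb.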

How the data were processed

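Total RNA of 2 hearts of 1 group was measured. Per the file headers and deposited notes, the authors used the mm10 build and GENCODE M21. Expected counts stand in the authors' tables of genes and transcripts, and a deposited table from another quantification, made directly from reads, holds estimated counts. The deposited TPM is corrected for length and scaled to a constant sum over all rows. The deposited FPKM served as an alternative, and the deposited percent of each isoform was recomputed here as a share of gene TPM. The columns are laid out as RSEM and kallisto write them. No program name or version is given in the sources used here.

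Counts were rounded, then scaled by TMM factors (edgeR 4.0.16, R 4.3.3), 0.964 for replicate 2 and 1.04 for replicate 1, and 0.5 was added before log2 ratios. Exact 95% Clopper-Pearson intervals came from scipy 1.17.1 and reflect counting error alone, as the reads carried no molecular identifiers and may repeat a molecule. Over 2-fold needed a mean count of at least 50 and an interval without equality. The wider interval adds edgeR's common dispersion from the 16161 genes that reached 10 counts in each library. Ratios of TPM within a library used a pseudocount of 0.1. DESeq2 1.42.0 size factors were an alternative. Spike-ins and rows naming no gene were left out; the rows held 7.91e-06% (replicate 2) and 1.00e-05% (replicate 1) of counts. The interval script was tested on simulated data.

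The members and lists were chosen with earlier results of these data known. Named were all 10 genes, the 3 highest of each list, members under 1 TPM in both or over 2-fold, Dld, and for markers Ucp1, Adipoq, Nppa and the highest of a list. Dlat, Slc7a5, Lep, Retn, Gpt, Gpt2, Fkbp5 and Pdhx were added after their values were seen. A gene that the rule names is not reported here.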

Additional observations from a re-analysis of the deposited data

How the results depend on the processing

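No paired analysis was possible because there is 1 group. Of 42 alternative values for the main counts and ratios, 37 kept to within the spread or count limits and 5 moved, and none reversed. Some of them could hardly move. Leaving out either library shifts a mean ratio by less than its SD. All 10 genes passed the count filter, and FPKM is proportional to TPM within a library. The share of the leading transcript entered as a median over genes, 60.1%, and 60.0% in the other quantification. Gene by gene, 7 of these shares moved there, that of Klf15 from 75.7% to 0.0421%. The number of genes whose counting interval left out equality was 3, and became 6 when counts were scaled by the total and 1 with the wider interval. The log2 ratio of Bcat2 over Bcat1 became 3.37 with a pseudocount of 1. In the other quantification the log2 ratio of Bckdk over Ppm1k became 2.68 and that of Ivd over Mccc1 became 1.23. The causes were not tested. The per-gene ratios were also recomputed under 3 settings chosen after seeing the data: with total counts the interval of Klf15 held equality (log2 ratio 0.11). Leaving out either library kept each within-library ratio in sign. Depth limits Bcat1 most, at 88 reads in replicate 2 and 110 in replicate 1.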
